A study of Homo sapiens with 5 samples.

Results

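The comparison set HCT116 cells given methylated miR-17 against HCT116 cells given a negative control, with 1 library on each side, 2 of the 5 libraries in the series. HCT116 is a human colorectal carcinoma line, and the series describes the cells used for every library as a Dicer knockout, so the controls lack the enzyme as well. The methylated miR-17 is labelled 13A, the other libraries are native miR-17, methylated let-7a (19A) and native let-7a, and the labels give neither the type of methyl group, nor the oligonucleotide sequences, nor the time after transfection. Total RNA was sequenced after removal of ribosomal RNA. The difference reported for a gene is log2(TPM + 1) with methylated miR-17 minus log2(TPM + 1) in the negative control, where TPM is the length-scaled share of a transcript in its library, and it was taken for those 14180 of the 57773 listed genes whose mean over the 5 libraries reached 1 TPM. With 1 library a side no difference has a replicate check, no test exists and no p-value is given. A gene is called lower or higher by size alone, at 2-fold or more in TPM + 1.

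MicroRNAs guide Argonaute proteins to messenger RNAs, mostly through the seed, bases 2 to 8 from the 5′ end, which pairs with sites in the 3′ untranslated region (3′ UTR), and bound messengers are deadenylated, decapped and degraded. Dicer cuts precursor hairpins into mature microRNAs, so cells without it hold few of their own and a transfected microRNA meets little competition from its family. The miR-17 family is encoded in several clusters, the best known being miR-17-92, an amplified and MYC-driven cluster in tumours. Its textbook targets include genes of the cell cycle, of apoptosis and of TGF-beta signalling.

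The mature sequences, from RefSeq on GRCh38.p14, show why the family is read through 1 set of sites. Capitals mark the seed, and in miR-17 also the adenosine at position 13 that the label 13A was read to name.
miR-17-5p: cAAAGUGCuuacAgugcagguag
miR-20a-5p: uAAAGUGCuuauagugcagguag
miR-93-5p: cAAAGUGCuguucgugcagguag
miR-106b-5p: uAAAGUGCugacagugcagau
let-7a-5p: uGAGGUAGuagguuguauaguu
The sequence of miR-17-5p lies on the plus strand at chr13:91350618-91350640. All 6 family members looked up, miR-20b and miR-106a included, share the seed AAAGUGC. Position 13 lies outside the seed. The let-7a seed is unrelated, so the let-7a libraries serve as a second reference that also received a microRNA.

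Sites were searched on the transcript strand of the longest annotated 3′ UTR (GENCODE 29), for 12020 genes with at least 50 nucleotides of it. An 8mer is GCACTTTA, a 7mer-m8 is GCACTTT, a 7mer-A1 is CACTTTA and a 6mer is CACTTT, each class holding the genes with no longer match. An 8mer was found in 5.52% of the searched genes and a 7mer or an 8mer in 31.5%. The sites below belong to 7 genes with large differences described further on, 5 of them 8mers and 2 of them 7mer-m8 sites, with the match in capitals and the 15 bases before it in lower case.
ENPP5, 8mer: agtaccttatgtattGCACTTTA
PFKP, 8mer: taagttattttatcaGCACTTTA
MKNK2, 8mer: gggaaaaacatccaaGCACTTTA
SEMA4B, 8mer: attttttaataagatGCACTTTA
F3, 8mer: tatgctttacaatctGCACTTTA
LIMK1, 7mer-m8: tgaagctttctcagtGCACTTTg
EREG, 7mer-m8: ttgcactctgtaattGCACTTTt
The 7mer-m8 sites differ from the 8mers in the base after the match, which is not A. LIMK1, ENPP5 and MKNK2 have 2 sites of at least 7 bases, while PFKP, SEMA4B, F3 and EREG have 1 each. The printed PFKP site begins at base 73 of a 3′ UTR of 223 nucleotides, close behind the coding sequence, and that of EREG at base 3648 of 3943, near the far end. The genes lie on chromosomes 6 (ENPP5), 10 (PFKP), 19 (MKNK2), 15 (SEMA4B), 1 (F3), 7 (LIMK1) and 4 (EREG).

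Sequencing depth is unknown, because TPM values do not keep it. Mitochondrially encoded genes took 9.36% of the TPM with methylated miR-17, the lowest of the 5 libraries, against 12.62% in the negative control, the highest. Cytosolic ribosomal protein genes took 17.78% with methylated miR-17, the highest, and 14.29% in the negative control, the lowest. Epithelial markers were high in both libraries, with KRT8 at 2910.4 TPM and EPCAM at 573 TPM in the methylated miR-17 library, against 1902.3 and 524.4 TPM in the negative control, while the gut markers CEACAM5 and VIL1 were listed at 0 in all 5 libraries. The summed level of 6 blood markers was 4.3 to 5.5 TPM over the 5 libraries, that of the endothelial markers 0.3 to 1.2 TPM and that of 6 fibroblast markers 11.6 to 17 TPM, with PTPRC, HBB, DCN and PDGFRA at 0 throughout. Within these sums LYZ had 3.7 to 4.4 TPM and COL1A1 10.8 to 16.3 TPM. The nerve markers summed to 76.8 to 96.5 TPM, nearly all of it SYT1 at 76.3 TPM in the methylated miR-17 library and 95.4 TPM in the negative control. The part of such cells in the results was not tested. DICER1 had 12.9 TPM with methylated miR-17 and 15.4 TPM in the negative control, and as no sample with working Dicer was at hand, these values do not check the knockout. In bulk RNA, fewer cells of a type and less RNA per cell cannot be told apart.

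Over all 14180 genes the median difference was -0.06, and 56.3% of genes were lower with methylated miR-17 by any amount. At 2-fold, 340 genes were lower (2.4%) and 187 higher (1.32%), or 270 lower and 224 higher once every difference was centred on the median. Against the mean of the let-7a libraries, 229 genes were at least 2-fold lower (1.61%) and 96 higher (0.677%), and 143 genes were lower on both references, which is 42.1% of those lower than the negative control and 62.4% of those lower than the let-7a mean. Of the genes at least 2-fold higher, 37 were so on both references, 19.8% of the 187 and 38.5% of the 96 counted against the let-7a mean. Both references are set against the same methylated miR-17 library, so the overlap is not a replicate check.

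Textbook targets of the miR-17 family were lower with methylated miR-17 almost throughout. Of 86 listed targets 81 passed the filter, and CCND2, TXNIP, NR4A3, VLDLR and CROT, at 1.1 TPM or less in every library, did not. Of the 81, 78 were lower than in the negative control (96.3%, against 56.3% of all genes) and 21 at least 2-fold lower (2.4% of all genes), and none was 2-fold higher. Their median difference was -0.70, against -0.06 over all genes. With native miR-17 against the same negative control, 71 of the 81 were lower (46.5% of all genes) and 17 at least 2-fold (1.73% of all genes). The median with native miR-17 was -0.53, against 0.02 over all genes. Methylated minus native miR-17 had a median of -0.12 over the targets and -0.09 over all genes. With methylated miR-17 against the mean of the let-7a libraries, 74 of 81 were lower (57.5% of all genes), 19 of them at least 2-fold, with a median of -0.57. On both references 73 were lower, as were 6573 of all 14180 genes. The medians of the same 81 genes in the let-7a libraries against the negative control, which is shared between these comparisons, were -0.07 with methylated and -0.12 with native let-7a. Without the 8 members that earlier results of these data had named, 71 of 73 were lower and the median was -0.67. At the 2-fold limit, KIF23 lay just inside at -1.04, and MICA, which overlaps exons of HCP5, just outside at -0.9989.

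LIMK1, the kinase that phosphorylates the actin-severing protein cofilin, had 19.5 TPM in the methylated miR-17 library, against 60.7 TPM in the negative control, a difference of -1.59 and the lowest of the list. It had 22.3 TPM with native miR-17, 60.3 TPM with methylated let-7a and 61.9 TPM with native let-7a. The miR-17 libraries were thus low and the other 3 close to each other. The same split, with both miR-17 libraries below all 3 others, held for the next genes by size. ENPP5, a membrane protein of the nucleotide pyrophosphatase family, had 9.1 TPM in the methylated miR-17 library, against 28.5 TPM in the negative control, a difference of -1.55. It had 10.7 TPM with native miR-17, 31.4 TPM with methylated let-7a and 31.2 TPM with native let-7a.

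PFKP, the platelet-type phosphofructokinase of glycolysis, had 56.8 TPM in the methylated miR-17 library, against 160.7 TPM in the negative control, a difference of -1.48. Here native let-7a (110.3 TPM) and methylated let-7a (126.4 TPM) also lay below the negative control, and native miR-17 was at 52.1 TPM, so on the let-7a reference the difference was -1.05. MKNK2, a kinase of the translation factor eIF4E, had 121.5 TPM in the methylated miR-17 library, against 312.9 TPM in the negative control, a difference of -1.36. The let-7a libraries held 273.3 to 281.2 TPM of MKNK2, nearer to the negative control than to methylated miR-17.

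Another 7 of the 12 lowest targets lay between -1.30 and -1.18. FYCO1, an adaptor that moves autophagosomes along microtubules, had 8.2 TPM in the methylated miR-17 library, against 21.7 TPM in the negative control. MINK1, a kinase of the STE20 family, had 26.6 TPM, against 63.1 TPM in the negative control, and ZNFX1, a helicase-like sensor of viral RNA, 19 TPM, against 44.2 TPM in the negative control. For these 3 the let-7a libraries lay within 20.4 to 22 TPM, 62.3 to 65.2 TPM and 45.8 to 46.4 TPM, beside the control. RAB22A, an endosomal small GTPase, and MAP3K2, a kinase upstream of JNK and ERK5, had 7.6 and 8.3 TPM in the methylated miR-17 library, against 19 and 20.2 TPM in the negative control. CCNG2, an atypical cyclin linked to growth arrest, had 27 TPM in the methylated miR-17 library, against 66.7 TPM in the negative control and 47.1 TPM in both let-7a libraries. ITGB8, an integrin subunit that activates latent TGF-beta, had 5 TPM, against 13 TPM in the negative control, with 8.2 TPM in methylated and 7.3 TPM in native let-7a. For CCNG2 and ITGB8 the difference on the let-7a reference was smaller, at -0.78 and -0.54, than the -1.27 and -1.22 on the negative control.

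**Figure D1:**
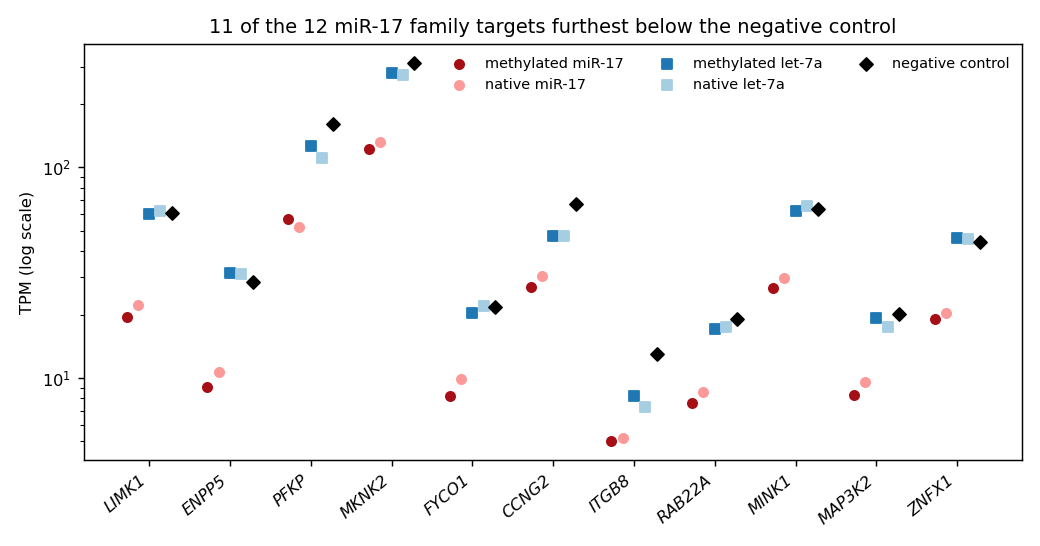
Levels of 11 of the 12 miR-17 family targets furthest below the negative control, in TPM on a log scale, in each of the 5 libraries (1 point a library, no replicates). Both miR-17 libraries lie below the 3 others for each gene drawn, and for LIMK1 the let-7a libraries, at 60.3 and 61.9 TPM, sit beside the negative control at 60.7 TPM.

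The other 3 members were not lower. RBL1, the p107 pocket protein, had 5.1 TPM with methylated miR-17 and 4.6 TPM in the negative control, a difference of 0.12. ETV1, an ETS transcription factor, had 10.2 TPM, against 9 TPM in the negative control, and was lower on the let-7a reference (-0.07). GABARAPL1, an ATG8-family autophagy protein whose longest 3′ UTR holds a 6mer and no longer match, had 108 TPM in the methylated miR-17 library, against 84.2 TPM in the negative control and 83.4 to 86.1 TPM in the let-7a libraries.

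By role, the list differed in size more than in direction. The counts by role stand beside 56.3% of all genes lower and 2.4% at least 2-fold lower. On the let-7a reference 57.5% of all genes were lower. Cell cycle and growth arrest genes had a median of -0.51, and -0.49 on the let-7a reference, with 17 of 18 lower and 4 at least 2-fold. CDKN1A, the p21 inhibitor of cyclin-dependent kinases, had 190.7 TPM in the methylated miR-17 library, against 430.8 TPM in the negative control and 442.2 to 483.4 TPM in the let-7a libraries. CCND1, cyclin D1, had 260.4 TPM, against 382.4 TPM in the negative control, and the pocket proteins RB1 and RBL2 had 24.2 and 11.8 TPM, against 32.1 and 22.1 TPM in the negative control. E2F1 had 5.8 TPM and E2F3 23.1 TPM in the methylated miR-17 library, against 9 and 26.8 TPM in the negative control. These 5 lay within 2-fold, where CDKN1A did not.

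Apoptosis and stress genes had a median of -0.44, and -0.53 on the let-7a reference, and all 8 were lower, ZNFX1 alone by 2-fold. BCL2L11, the pro-apoptotic protein BIM, had 21.1 TPM in the methylated miR-17 library, against 29.8 TPM in the negative control. TGF-beta and BMP genes had a median of -0.60 with 10 of 10 lower, and -0.31 with 7 of 10 lower on the let-7a reference. Among them ZFYVE9, the SARA anchor that brings SMADs to receptors, had 14 TPM, against 30 TPM in the negative control, and the receptors TGFBR2 and BMPR2 had 22.3 and 10.2 TPM, against 37.2 and 19.5 TPM in the negative control. BAMBI and SMAD7, inhibitors of the pathway, had 30.1 and 8.8 TPM in the methylated miR-17 library, against 52.4 and 14.2 TPM in the negative control. Both were at least as low in the let-7a libraries, with BAMBI at 23.2 to 27.2 TPM and SMAD7 at 5.4 to 7.6 TPM, so on that reference they were not lower.

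Kinase and cytokine signalling genes had a median of -0.85, and -0.77 on the let-7a reference, with 13 of 13 lower on both references. JAK1 and STAT3, which relay cytokine signals, had 38.3 and 51.7 TPM in the methylated miR-17 library, against 69.8 and 83 TPM in the negative control. Transcription and chromatin genes had a median of -0.55, and -0.37 on the let-7a reference, with NCOA3, a nuclear receptor coactivator, at 19.2 TPM, against 40.6 TPM in the negative control, and HIF1A, the hypoxia-inducible subunit, at 105.5 TPM, against 161.7 TPM in the negative control. Cytoskeleton, traffic and autophagy genes had a median of -0.75, and -0.90 on the let-7a reference. SQSTM1, the autophagy receptor p62, had 162.9 TPM in the methylated miR-17 library, against 273.5 TPM in the negative control and 337 to 361.7 TPM in the let-7a libraries. The mixed group of metabolic enzymes and receptors had a median of -1.07, and -0.67 on the let-7a reference, with APP, the amyloid precursor protein, at 235.3 TPM, against 484.9 TPM in the negative control.

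**Figure D2:**
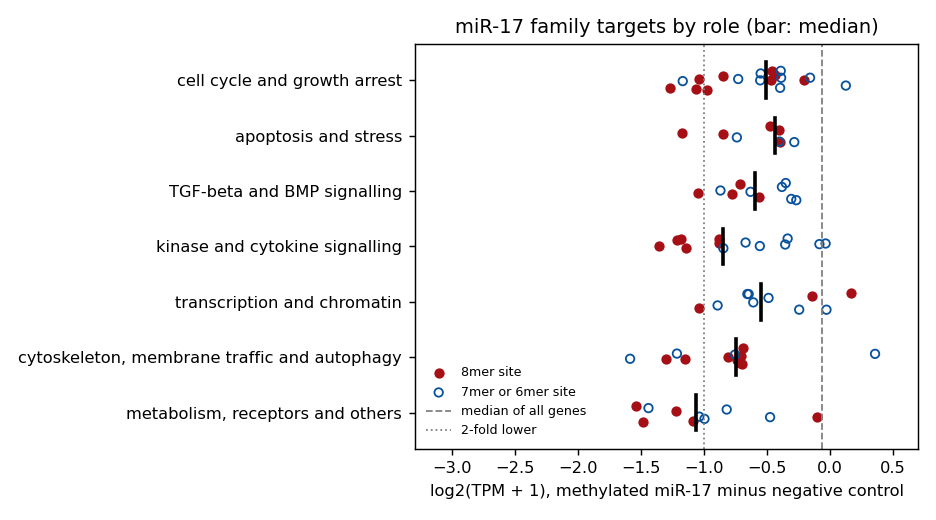
Difference of log2(TPM + 1), methylated miR-17 minus negative control, for each of the 81 targets, grouped by role. Filled points have an 8mer site in the longest 3′ UTR and open points a 7mer or 6mer, the bar is the group median, and the medians run from -0.44 for apoptosis and stress genes to -1.07 for the mixed group, all below the dashed median of all genes.

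Of the 81 targets, 79 had a site of at least 7 bases in the longest 3′ UTR. The 40 with an 8mer had a median of -0.85 and held 16 of the 21 that were 2-fold lower, and the 36 whose best site was a 7mer-m8 had a median of -0.55 and held the other 5. The 3 whose best site was a 7mer-A1 had a median of -0.40. The targets were collected from work that often used such sites, so the presence of a site in this list is no finding.

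Site class also ordered the searched genes as a whole, listed targets included. Genes with an 8mer, 664 in all, had a median difference of -0.43, and 83.1% were lower, against 57.7% of all searched genes. Genes whose best site was a 7mer-m8 (2375) had a median of -0.18 with 69.9% lower, those with a 7mer-A1 (746) -0.16 with 66.9% lower, those with a 6mer (2205) -0.09 with 59.5% lower, and the 6030 genes with no match 0.01 with 48.3% lower. The 624 8mer genes outside the target list had a median of -0.40. At 2-fold, 62 of the 664 8mer genes were lower (9.34%, against 1.61% of all searched genes) and 0 were higher. Of the 194 searched genes that were 2-fold lower, 63.4% had a 7mer or 8mer, and of the 60 that were 2-fold higher (0.499% of all searched genes) 13.3%, beside 31.5% of all searched genes. On the let-7a reference the order was the same, with medians of -0.36, -0.16, -0.11, -0.06 and 0.00 from 8mer to no match. The number of sites ordered the medians less: they were -0.20 for 1 site of at least 7 bases, -0.24 for 2, -0.24 for 3, -0.26 for 4 and -0.26 for 5 or more. Median 3′ UTR length rose along these classes, from 2182 nucleotides for 1 site to 9075 for 5 or more. The classes were not matched for length or site type.

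**Figure D3:**
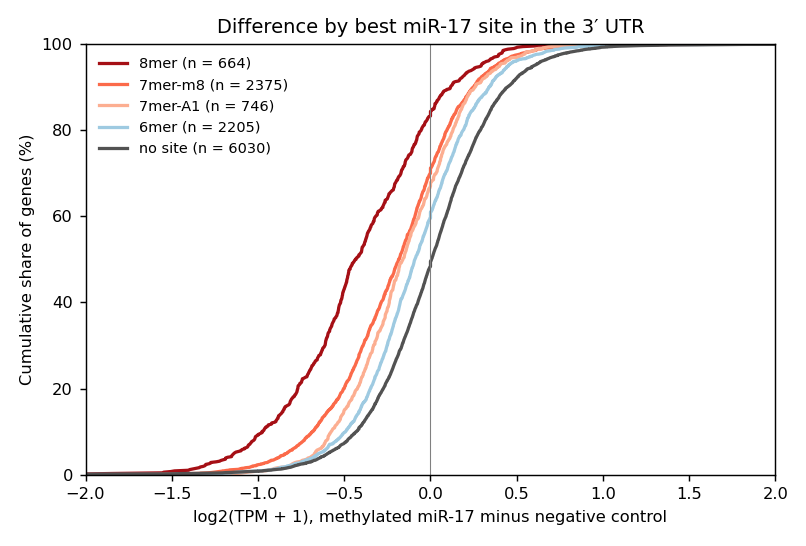
Cumulative share of genes (vertical axis, %) by difference of log2(TPM + 1), methylated miR-17 minus negative control, for the 5 site classes. The curves shift left in the order no site, 6mer, 7mer-A1, 7mer-m8 and 8mer, with medians of 0.01, -0.09, -0.16, -0.18 and -0.43, and the axis is limited to 2 on either side.

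Length of the 3′ UTR moved with the site classes. The median length was 689 nucleotides for genes with no match and 3242.5 for 8mer genes, and in the methylated miR-17 library genes without any match had medians of 0.10, 0.01, -0.04, -0.11 and -0.12 from the shortest to the longest of 5 equal-sized length classes. Within each length class the 8mer genes remained below them, at -0.78, -0.53, -0.58, -0.42 and -0.37, with 20, 37, 82, 179 and 346 genes. The gap between 8mer genes and genes with no match was -0.88 in the shortest class and -0.25 in the longest. The gap of 7mer-m8 genes was -0.24 in the shortest class, -0.06 in the second longest and -0.09 in the longest. For the 6mer it was -0.03 or nearer to 0 in each class.

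In the native miR-17 library against the same negative control, genes without a match had medians of 0.10 in the shortest class and 0.03 in the longest, a flatter course. The 8mer genes had medians of -0.69, -0.54, -0.40, -0.31 and -0.21 there, and their gap to genes with no match was -0.79 in the shortest class and -0.24 in the longest. Set side by side, the methylated library had lower medians than the native one in 4 of 5 length classes for 8mer genes, and in all 5 for genes with no match. The direct difference, methylated minus native miR-17, had a median of -0.13 over 8mer genes, -0.12 over 7mer genes and -0.11 over 6mer genes. It was -0.06 over genes with no match, whose 3′ UTRs are shorter, and -0.09 over all searched genes. From the shortest to the longest class, the 8mer gap to no match was -0.88, -0.54, -0.53, -0.30 and -0.25 with methylated miR-17. With native miR-17 the gap was -0.79, -0.60, -0.44, -0.33 and -0.24, so neither library had the wider gap throughout.

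**Figure D4:**
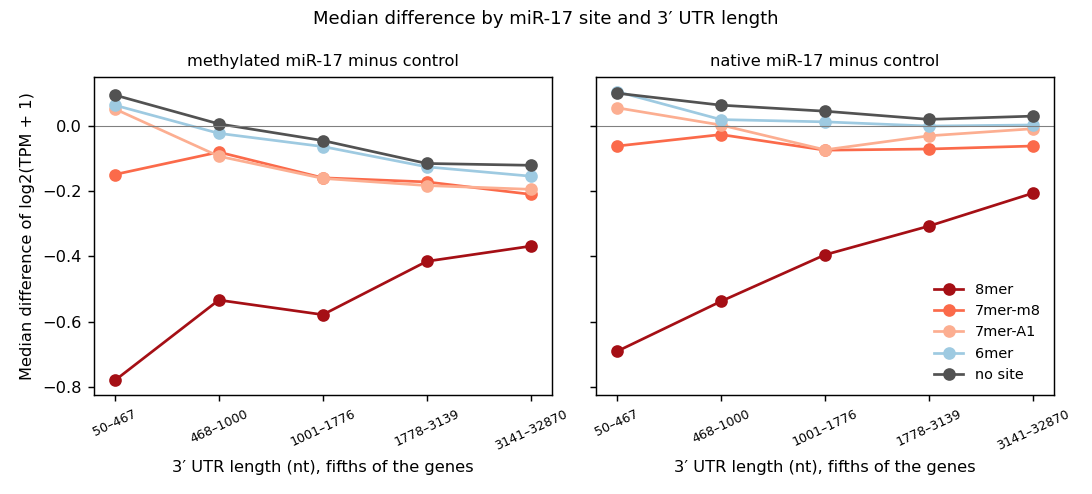
Median difference of log2(TPM + 1) by best miR-17 site (colour) in 5 equal-sized classes of the searched genes by 3′ UTR length (horizontal axis, nucleotides), for methylated miR-17 minus negative control at left and native miR-17 minus the same control at right. The 8mer line is lowest in all classes of both panels, from -0.78 to -0.37 at left, and the genes without a site slope from 0.10 to -0.12 at left.

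Seeds of other microRNAs gave a yardstick in 3′ UTRs of similar length. Genes with an 8mer for miR-19a, a member of the same cluster with another seed, had a median of -0.18 with methylated miR-17, those for miR-92a -0.22, for miR-18a -0.19, for let-7a -0.12 and for miR-21 -0.15, with median 3′ UTR lengths of 2992.5 to 3430.5 nucleotides. Among such genes without a miR-17 site of at least 7 bases the medians were -0.12, -0.18, -0.12, -0.03 and -0.06 in the same order. An 8mer for miR-17-3p, the other strand of the hairpin, went with a median of -0.15, and -0.10 without a miR-17-5p site. All of these lay between the miR-17 8mer genes at -0.43 and the genes with no match at 0.01.

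Matches in coding sequence also went with lower values. Among genes with no match in the 3′ UTR, the 86 with an 8mer in the coding sequence had a median of -0.26 with 76.7% lower, the 368 with a 7mer-m8 -0.12 and the 4596 with no match 0.03. Coding length differed as well, with medians of 2163, 2062.5 and 999 nucleotides, and among coding sequences above the median length the medians were -0.28, -0.16 and -0.06. In the 5′ UTR only 14 genes had an 8mer, with a median of 0.05. A match to bases 13 to 16 of the microRNA (CACT), the stretch that includes position 13, was looked for in the 15 bases before the 8mer. The 45 genes with it had a median of -0.48 and the 619 without it -0.42, whereas 6.67% of those with it and 9.53% of those without it were at least 2-fold lower, and with native miR-17 the medians were -0.27 and -0.28.

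Outside the target list, the 6 lowest 8mer genes of at least 10 TPM in the negative control included CYBRD1, a ferric reductase of the plasma membrane, with 7 TPM in the methylated miR-17 library, against 32.8 TPM in the negative control, a difference of -2.08. SEMA4B and SEMA7A, both semaphorins, had 14.7 and 7.7 TPM, against 45.1 and 23.7 TPM in the negative control. F3, the tissue factor that starts coagulation, had 17.5 TPM, against 47.9 TPM in the negative control, and VANGL1, a planar cell polarity protein, 13.4 TPM, against 36.9 TPM in the negative control. In the let-7a libraries these 5 genes lay at 21.9 to 24.3, 34.7 to 41.9, 16.8 to 18.2, 45 to 46.2 and 27.8 to 30.3 TPM, above both miR-17 libraries in each case. SLC5A3, the inositol transporter, had 7.9 TPM, against 31 TPM in the negative control, but also 9.6 TPM with native let-7a, and it overlaps exons of MRPS6 on the same strand, so its level is uncertain.

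The Argonaute genes, whose products carry microRNAs, were themselves lower. AGO2, the slicing Argonaute, had 27.1 TPM in the methylated miR-17 library, against 58.3 TPM in the negative control and 54.1 to 55.2 TPM in the let-7a libraries. AGO1 and AGO3 had 17.3 and 5.2 TPM, against 28.2 and 7.9 TPM in the negative control. All 3 hold 7mer-m8 sites in 3′ UTRs of 10921 to 16755 nucleotides, in the longest class. Of the 13 silencing genes 11 were lower (56.3% of all genes), with a median of -0.35 for the 9 with a site and -0.02 for the 4 without. The list median was -0.24, and -0.15 on the let-7a reference with 9 of 13 lower (57.5% of all genes). With native miR-17 it was -0.04 with 7 of 13 lower (46.5% of all genes). TARBP2, the Dicer partner, had 24.6 TPM, against 22.4 TPM in the negative control.

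Sterol synthesis genes were lower with methylated miR-17, 23 of 24 on both references, beside 6573 of all 14180 genes. Their medians were -0.45 against the negative control and -0.49 against the let-7a mean. With native miR-17 against the negative control the median was -0.48, with 22 of 24 lower (46.5% of all genes). MVK, mevalonate kinase, had 16.6 TPM, against 39 TPM in the negative control, and MSMO1, a sterol oxidase, 102.5 TPM, against 231.1 TPM in the negative control. Both hold a miR-17 site, and the 3 members with a site were also the 3 that were 2-fold lower. The 21 members without a site had a median of -0.38, with 20 lower, among them SQLE, squalene epoxidase, at 28.3 TPM, against 51.4 TPM in the negative control. TM7SF2 was the exception, at 57.4 TPM, against 40.5 TPM in the negative control, but it overlaps exons of VPS51 on the same strand, so its level is uncertain. Fatty acid synthesis genes had a median of -0.32, and -0.13 with native miR-17. Of the 11, 9 were lower (56.3% of all genes), with FASN, fatty acid synthase, at 646.9 TPM, against 985.7 TPM in the negative control.

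Hypoxia and glycolysis genes were among the lists furthest below the negative control, and much of that distance was shared with the let-7a libraries. Hypoxia genes outside glycolysis had a median of -0.88, and -0.79 with native miR-17. Of the 20, 19 were lower (56.3% of all genes) and 9 at least 2-fold (2.4% of all genes). ANGPTL4, a secreted inhibitor of lipoprotein lipase, had 10.7 TPM in the methylated miR-17 library, against 57.5 TPM in the negative control, with 32.8 TPM in methylated and 12.7 TPM in native let-7a. On the let-7a reference the list median was -0.33. Glycolysis genes had medians of -0.64 against the negative control and -0.15 against the let-7a mean. With native miR-17 against the negative control the median was -0.80. SLC2A1, the main glucose transporter, had 286.8 TPM with methylated miR-17, 608.6 TPM in the negative control and 235.7 TPM with native let-7a. PFKP was the 1 glycolysis gene that was 2-fold lower on both references.

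**Figure D5:**
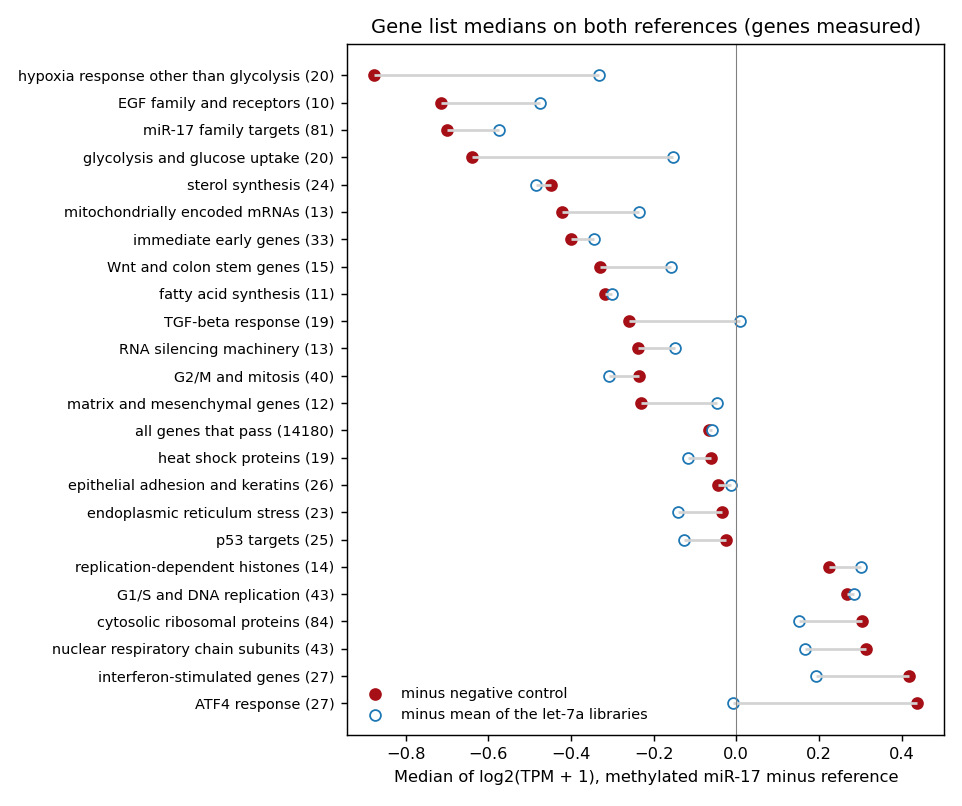
Median difference of log2(TPM + 1) of each gene list, methylated miR-17 minus the negative control (filled) and minus the mean of the let-7a libraries (open), with the number of genes measured. Sterol synthesis lies at -0.45 and -0.49, whereas hypoxia genes lie at -0.88 and -0.33 and TGF-beta response genes at -0.26 and 0.01.

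Growth factor and early response genes were lower. EREG, an EGF receptor ligand, had 254.4 TPM in the methylated miR-17 library, against 684.1 TPM in the negative control and 676.5 to 758 TPM in the let-7a libraries. It had 257.1 TPM with native miR-17. EGFR and ERBB3 had 25.2 and 14.4 TPM, against 51.7 and 28.5 TPM in the negative control, and 9 of 10 genes of this family were lower (56.3% of all genes). Their median was -0.71 against the negative control, -0.47 on the let-7a reference and -0.47 with no filter on low genes. With native miR-17 against the negative control it was -0.47. EGFR, at 35.3 to 36.1 TPM in the let-7a libraries, was not 2-fold lower on that reference (-0.49). Immediate early genes had a median of -0.40, -0.34 on the let-7a reference and -0.31 with native miR-17, with 27 of 33 lower (56.3% of all genes). KLF2, a transcription factor, had 33.5 TPM, against 78.6 TPM in the negative control and 71.8 to 82.2 TPM in the let-7a libraries. FOSL2 and EGR1 had 8.7 and 56.6 TPM, against 23.5 and 111.9 TPM in the negative control. On the let-7a reference their differences were smaller, at -0.46 and -0.37, than the -1.34 and -0.97 on the negative control. ATF3 went the other way, at 29 TPM, against 20.9 TPM in the negative control. DKK1, a secreted Wnt inhibitor, had 43.4 TPM, against 97.1 TPM in the negative control. The Wnt and stem list had a median of -0.33 with 11 of 15 lower, beside 56.3% of all genes. On the let-7a reference its median was -0.16, with 9 of 15 lower on both references, as were 6573 of all 14180 genes. The TGF-beta response list as a whole had a median of -0.26, with 18 of 19 lower (56.3% of all genes), and 0.01 on the let-7a reference. With native miR-17 its median was -0.18, and that of the Wnt and stem list -0.25.

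Cell-cycle genes went in both directions. Of 43 G1/S and replication genes 33 were higher (42.1% of all genes were), with medians of 0.27 against the negative control and 0.29 against the let-7a mean. With native miR-17 against the negative control the median was 0.32. MCM5, a subunit of the replicative helicase, had 28.3 TPM in the methylated miR-17 library, against 16.6 TPM in the negative control, and POLA1, the catalytic subunit of polymerase alpha, 12.1 TPM, against 6.5 TPM in the negative control. Of 40 G2/M genes 33 were lower (56.3% of all genes), with medians of -0.23 and -0.31, and -0.27 with native miR-17. KIF23, a kinesin of cytokinesis with an 8mer site, had 17.3 TPM, against 36.6 TPM in the negative control, and ASPM, a spindle pole protein with no site, 10.5 TPM, against 18.2 TPM. The 30 G2/M genes without a site had a median of -0.23, next to -0.24 for the 10 with one.

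Several further lists were higher. Interferon-stimulated genes had a median of 0.42, with 22 of 27 higher (42.1% of all genes) and 3 at least 2-fold (1.32% of all genes). With native miR-17 the median was 0.28. IFIT3 and BST2, an RNA-binding and a virus-tethering protein, had 15.3 TPM each, against 5.1 and 6.7 TPM in the negative control, and IFITM1, which overlaps exons of IFITM2, had 25.2 TPM, against 8.8 TPM in the negative control and 19 to 20 TPM in the let-7a libraries. On the let-7a reference the list median was 0.19, and IFIT3 (0.87) and IFITM1 (0.35) were not 2-fold higher. IFIT3 holds a 7mer-m8 site, while BST2 and IFITM1 have no match. Genes of the ATF4 amino acid response had a median of 0.44, with 24 of 27 higher (42.1% of all genes), and -0.01 on the let-7a reference. With native miR-17 their median was 0.45. CHAC1, which degrades glutathione, had 119.2 TPM, against 59.6 TPM in the negative control and 104.2 TPM with native let-7a. NUPR1, a stress-induced chromatin protein, had 100.3 TPM, against 38.8 TPM in the negative control and 32.8 to 48 TPM in the let-7a libraries, and was the 1 member that was 2-fold higher. NUPR1 has 3 miR-17 sites of at least 7 bases. Cytosolic ribosomal protein genes had a median of 0.30 (83 of 84 higher) and nuclear respiratory chain subunits 0.31 (42 of 43 higher), with 0.15 and 0.17 on the let-7a reference. Of all genes 42.1% were higher. With native miR-17 the medians were 0.16 and 0.23. RPL18 had 1150.9 TPM, against 711.1 TPM in the negative control. The 13 mitochondrially encoded mRNAs were all lower (56.3% of all genes), with medians of -0.42 and -0.23, and -0.21 with native miR-17. MT-CO1 had 11781.3 TPM, against 18547.7 TPM in the negative control.

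The largest single differences were taken without regard to the lists. Of the 8 highest protein-coding genes averaging 20 TPM or more, SPARC, a matrix glycoprotein of the matrix and mesenchymal list, had 38.7 TPM with methylated and 44.7 TPM with native miR-17, against 8.2 TPM in the negative control and 4.3 to 5.5 TPM in the let-7a libraries. TNNC1, a troponin C, had 115.9 and 120.7 TPM in the miR-17 libraries, against 46.3 TPM in the negative control and 39.9 to 40.7 TPM in the let-7a libraries. ARG2, the mitochondrial arginase, had 99.8 TPM in the methylated miR-17 library, against 43.3 TPM in the negative control and 56.5 to 61.2 TPM in the let-7a libraries. POP5, a ribonuclease P subunit, had 29.1 TPM, against 12.2 TPM in the negative control and 19.8 to 20.3 TPM in the let-7a libraries. Neither was 2-fold higher on the let-7a reference, at 0.75 for ARG2 and 0.52 for POP5. MNAT1 and CACUL1 had 26.2 and 66 TPM, against 10.4 and 28.7 TPM in the negative control, but 24.2 to 24.8 and 75.9 to 76 TPM in the let-7a libraries, so the negative control alone was low. NKG2-E overlaps exons of KLRC2 and KLRC3 on the same strand, and its level is uncertain. SPARC and CACUL1 hold 7mer-m8 sites in the longest 3′ UTR, while TNNC1, ARG2, POP5, MNAT1 and NKG2-E have no match. Among the 8 lowest, TNFRSF10D, a decoy receptor for TRAIL, had 77.1 TPM, against 218.8 TPM in the negative control and 132.5 to 171 TPM in the let-7a libraries. LOXL2, a collagen cross-linking oxidase of the same list as SPARC that overlaps exons of ENTPD4, had 29 TPM, against 81.3 TPM in the negative control and 35.9 TPM with native let-7a.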

How the data were processed

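TPM values per gene, given to 1 decimal, were deposited in a single table whose 5 columns were matched to the samples by title, per the file headers. Per the submitters' processing notes the build was hg19, and the aligner, the counter and the annotation behind the values are unknown here. Depth is unknown, so no interval or floor is given. Per the labels' protocols, RNA was extracted with Isogen and libraries were made with a stranded, ribosomal RNA-depleting TruSeq kit. Differences of log2(TPM + 1) were computed with Python 3.11.15 and pandas 2.3.3, a pseudocount of 1 understating changes of low genes. Of the deposited identifiers 90.6% were found in GENCODE 29, on another build, which gave sequences, gene types, chromosomes and exon overlaps alone. Besides the genes marked above, PFKP, AGO2, SLC2A1, ERBB3, RPL18 and MNAT1, among others, overlap exons of another gene on the same strand. The effect on their levels was not tested. Genes were named by rule: the 12 lowest targets and those not lower, the 6 lowest other 8mer genes, the 3 furthest and 1 opposite member of each list among those of at least 3 TPM, and the 8 lowest and 8 highest protein-coding genes. Some genes that these rules pick are not reported here. Other members were named afterwards as examples by role. Members, lists and rules were chosen with earlier results of these data known, and the searches in coding sequence, in the 5′ UTR and for bases 13 to 16 were added later.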

Additional observations from a re-analysis of the deposited data

How the results depend on the processing

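No paired analysis was possible because each group holds 1 library. The count of genes at least 2-fold lower, 340, was 555 with a pseudocount of 0.1, 101 with 5 and 190 with the filter raised to a mean of 5 TPM. The count of genes at least 2-fold higher, 187, was 375, 36 and 65 under these settings, 306 with no filter and 96 on the let-7a reference. Centred on the median the counts were 270 lower and 224 higher, and without mitochondrially encoded genes, which moved the median of all genes from -0.06 to -0.11, they were 414 and 187. The higher genes made up 35.5% of those past 2-fold, and 40.3% with a pseudocount of 0.1, 26.3% with 5, 40.6% with no filter, 25.5% with the raised filter, 29.5% on the let-7a reference, 31.1% without mitochondrially encoded genes and 45.3% when centred. The target median of -0.70 was -0.56 with a pseudocount of 5 and -0.57 on the let-7a reference, and the 8mer median of -0.43 was -0.31 with a pseudocount of 5. The remaining medians of site classes and targets moved by less than 0.1; centring turned that of genes with a 6mer or no site to 0.05, against -0.02 uncentred. On the let-7a reference the sign turned for the ATF4 (-0.0086) and TGF-beta (0.0096) list medians and for ETV1 (-0.0692), PFKL (-0.10), CANX (-0.11), CCNE2 (0.29), KIF4A (-0.26), HIST1H3H (-0.33), HIST1H3D (0.24), BAMBI (0.25), SP5 (-0.43), HSPD1 (-0.23) and CACUL1 (-0.20). Centred on the median it turned for UQCRFS1 (0.0437) and RPL7L1 (0.0551), and for the list medians of endoplasmic reticulum stress (0.03), p53 targets (0.04), heat shock proteins (0.0039) and epithelial genes (0.02, and 0.0058 with no filter). A further 19 named genes past 2-fold against the negative control were within it, with the same sign, on the let-7a reference. With a pseudocount of 5 this held for 12 named genes, among them AGO2 (-0.98), RAB22A (-0.93), MAP3K2 (-0.92), KIF23 (-0.90) and ITGB8 (-0.85). Centred on the median it held for 2, KIF23 (-0.97) and EGFR (-0.94). The cause was not tested. A single library a side and an unknown depth limit all values.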

Other observations

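The 237 noncoding genes whose mean reached 10 TPM had a median difference of 0.02, with 5 at least 2-fold lower and 8 higher. Over all genes, taken at the lower filter of 1 TPM, 2.4% were 2-fold lower and 1.32% higher. SNHG6, a small nucleolar RNA host gene, had 385 TPM in the methylated miR-17 library, against 161.7 TPM in the negative control and 354.4 to 367.1 TPM in the let-7a libraries, so the negative control stood apart. The pseudogene FAM3C2 had 221.4 TPM with methylated and 220.7 TPM with native miR-17, against 398.8 TPM in the negative control and 438.3 to 481.5 TPM in the let-7a libraries. FAM3C2 is a processed pseudogene, and reads shared with its parent gene make its level uncertain.

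Colon epithelial adhesion and keratin genes showed no common direction, with 13 of 26 lower (56.3% of all genes) and a median of -0.04. KRT7 had 8.5 TPM in the methylated miR-17 library, against 3.9 TPM in the negative control. OVOL1, an epithelial transcription factor, had 13.5 TPM, against 23.4 TPM in the negative control. Targets of p53 had a median of -0.03, with 16 of 25 lower, endoplasmic reticulum stress genes -0.04 with 13 of 23 lower, and heat shock proteins -0.06 with 12 of 19 lower, against -0.06 over all genes. Those shares, 64%, 56.5% and 63.2%, lay near the 56.3% of all genes that were lower. On the let-7a reference 20 of 23 endoplasmic reticulum stress genes (median -0.14) and 21 of 25 p53 targets (median -0.13) were lower, against 57.5% of all genes. The chaperone CANX had 602.4 TPM, against 287.2 TPM in the negative control and 631.3 to 666.2 TPM in the let-7a libraries. Of 12 matrix and mesenchymal genes 8 were lower (56.3% of all genes), with a median of -0.23. The median was 0 with no filter, -0.05 on the let-7a reference and -0.44 among genes averaging 5 TPM or more. Of 14 replication-dependent histones 12 were higher (42.1% of all genes), with a median of 0.23. MIR17HG, the host transcript of the miR-17-92 cluster, had 0.4 TPM with methylated miR-17 and 0.1 TPM in the negative control, under the filter. MCM7, whose introns hold miR-93 and miR-106b, had 79.1 TPM, against 59.1 TPM in the negative control and 58 to 64.2 TPM in the let-7a libraries.

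Among genes averaging 5 TPM or more, 3 were listed at 0 with methylated miR-17 and 4 in the negative control, and these values were not read as absence.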
